A study of Mus musculus with 6 samples.

Results

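The genes described here are 10 transcripts of the oxygen-sensing pathway, chosen by name from a count table of 21033 genes. They are the hypoxia-inducible factor subunits Hif1a and Epas1, the prolyl hydroxylases Egln1, Egln2 and Egln3, the ubiquitin ligase subunit Vhl, and the non-glycolytic hypoxia targets Bnip3, Ndrg1, Vegfa and Adm. All 10 were in the table, and all 10 were among the 10124 genes with enough reads to be tested. They were measured in primary synovial fibroblasts of the ankle joint. The donors were hTNFtg mice with a transgene for human TNF, and the cells had been through 3 passages in culture. Both groups therefore share the transgene, the tissue of origin and the passage number. One group received the vehicle DMSO and the other 10 µM compound 33, both for 48 h, and each group has 3 libraries. For animal age and culture oxygen, no value is given in the sources used here. The comparison asks which transcripts of these activated fibroblasts differ under compound 33, which the title of the series presents as acting on the chaperone Hyou1.

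In cells with enough oxygen, prolyl hydroxylases modify the alpha subunits HIF-1α and HIF-2α, the VHL ligase then binds them, and the proteasome degrades them. When oxygen is short the subunits persist, pair with ARNT and bind DNA at a short core sequence near genes for glycolysis, vessel growth, pH control and mitochondrial turnover. This control acts mostly on the protein, so the transcript level of Hif1a is not a measure of HIF activity. Inflamed joints are poorly oxygenated, and hypoxia-inducible factors have long been studied in synovial fibroblasts for that reason.

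The libraries held from 1594052 to 2897207 reads. Levels are counts per 1000000 reads (CPM) after scaling of the libraries. They come from a kit that reads the 3′ ends of transcripts, so no length correction applies. Tests compare levels between groups, and no test compares them between genes. Genes were ranked by level to name the most abundant of each list. Library pairs within a group correlated at Pearson's r of 0.920 to 0.963 across genes, which are not independent replicates, and pairs between groups at 0.922 to 0.965. All 8 fibroblast markers looked up had reads, with a summed level of 11868 to 13462 CPM with DMSO and 10615 to 12611 CPM with compound 33. Of the 8, 2 had a positive and 6 a negative log2 fold change. The lowest was Thy1 at -0.65 (765 ± 166 and 486 ± 52.0 CPM, unadjusted p = 0.0128, adjusted p = 0.605 in edgeR). Markers of other cell types had reads too. Macrophage markers summed to 63.1 to 136 CPM with DMSO and 53.5 to 99.3 CPM with compound 33. Most of that sum came from Lyz2 and Cd14, while Ptprc had at most 4 reads and Adgre1 at most 2 in a library. Mural markers summed to 53.6 to 85.3 CPM and 58.0 to 102 CPM, and osteoblast markers to 255 to 883 CPM and 432 to 743 CPM. Most of the osteoblast sum was Spp1 (539 ± 318 and 561 ± 162 CPM), while Sp7, Ibsp and Dmp1 had no read in any library. Chondrocyte markers summed to 62.6 to 151 CPM and 99.6 to 120 CPM, mostly Sox9, with no read of Acan. Muscle markers summed to 24.4 to 40.3 CPM and 19.0 to 32.4 CPM, mostly Acta1. The endothelial markers Pecam1 and Tie1 had no read in any library. Whether the libraries came from separate cultures or animals is not in the labels, so the p-values below reflect spread among libraries that could be technical.

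None of the 10 genes passed edgeR's quasi-likelihood test at an adjusted p under 0.05, a threshold that 3 genes, or 0.0296% of those tested, did pass. None passed in limma-voom, where 0.0198% of all genes did, and none in DESeq2, where 0.179% did and Epas1 has no adjusted p. Under an unadjusted 0.05 lay 4 of the 10 in DESeq2, beside 4.20% of all genes with a p-value there. That share includes genes of low count that edgeR and limma-voom left out. In limma-voom 3 of the 10 lay under 0.05, beside 6.75% of the genes tested. Before adjustment 4 of the 10 lay under 0.05 in edgeR, Hif1a and Bnip3 with lower levels and Egln3 and Ndrg1 with higher levels under compound 33. Over all tested genes 6.87% did so, 3.23% lower and 3.64% higher. In 4 of the 10 the groups did not overlap, with Hif1a, Egln1 and Bnip3 lower in every compound 33 library and Egln3 higher in every one, where 13.4% of all tested genes had groups that did not overlap, 6.73% lower and 6.64% higher. The shares among the 10 lay above those backgrounds, but the genes were chosen with earlier results of these data known and the difference was not tested. With 1 library left out, between 2 and 4 of the 10 lay under an unadjusted 0.05 in edgeR, and Hif1a was the one present each time, beside 5.33% to 9.17% of all genes. The count was 2 without DMSO replicate 3 and also without compound 33 replicate 1. The median log2 fold change of the 10 was -0.25, with 6 negative and 4 positive, beside -0.01 over all tested genes.

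**Figure D1:**
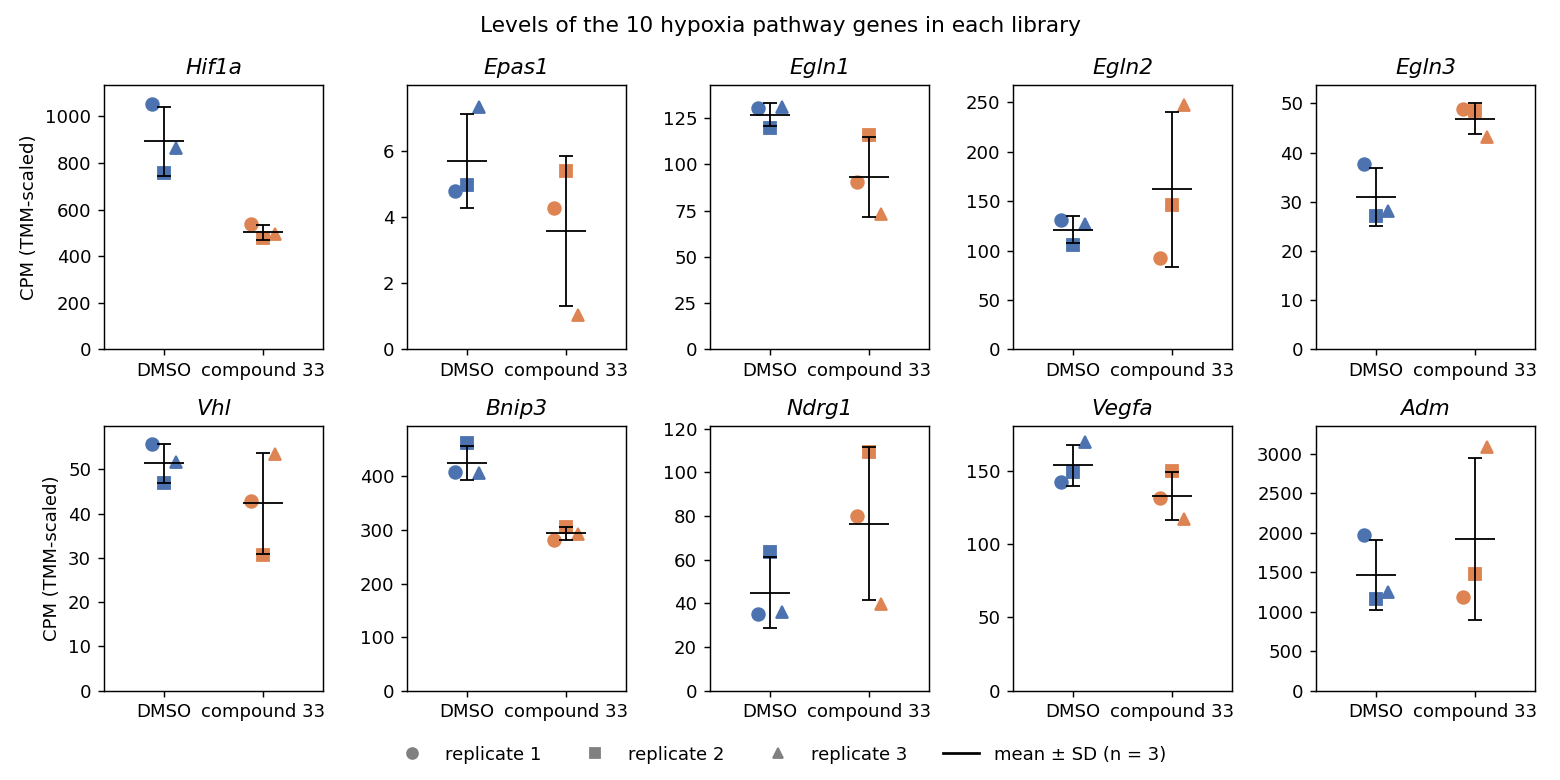
Level of each gene in every library, in CPM on an axis from 0; blue is DMSO, orange is compound 33, the shape gives the replicate number, and bars show mean ± SD (n = 3). Hif1a, Egln1 and Bnip3 lie lower in all 3 compound 33 libraries than in any DMSO library and Egln3 lies higher, while the other 6 overlap.

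Hif1a encodes HIF-1α, the broadly expressed oxygen-regulated subunit, and lies on mouse chromosome 12 at 73901375 to 73947530 on the plus strand of mm10. Its level was 1054, 758 and 864 CPM in the 3 DMSO libraries and 539, 476 and 493 CPM in the 3 compound 33 libraries. The lowest DMSO library thus stood above the highest compound 33 library, and the compound 33 libraries lay close together (coefficient of variation 6.47%, against 16.8% with DMSO). The mean was 892 ± 149.6 CPM with DMSO and 503 ± 32.5 CPM with compound 33 (SD over n = 3 libraries each), a level 1.77-fold lower. The log2 fold change was -0.83 (SE 0.21, 95% interval -1.29 to -0.37), with an unadjusted p of 0.00180 and an adjusted p of 0.401 in edgeR. Leaving out DMSO replicate 2 gave -0.92 and leaving out DMSO replicate 1 gave -0.69, the extremes over the 6 libraries. In the authors' deposited table Hif1a has a log2 fold change of -0.83 (SE 0.21) and an adjusted p of 0.0514. It is the 19th gene by p in the authors' deposited table, directly after the 18 genes (0.179% of those with an adjusted p) that pass 0.05 there. In bulk RNA, fewer cells with the transcript and less transcript per cell cannot be told apart. Exons of Hif1a overlap the antisense gene Gm15283 and, on the same strand, the protein-coding gene Gm49321, neither of which has a row in the count table. How strand was handled in counting is unknown here, so reads of overlapping genes cannot be told apart.

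Epas1 encodes HIF-2α, the second alpha subunit, best known from endothelium, and lies on chromosome 17 at 86753700 to 86833410. It was barely sampled, with 9, 11 and 21 reads with DMSO and 7, 13 and 2 reads with compound 33. These correspond to 4.77, 4.96 and 7.31 CPM and to 4.28, 5.39 and 1.03 CPM, so the groups overlap. The mean was 5.68 ± 1.41 CPM with DMSO and 3.57 ± 2.27 CPM with compound 33 (n = 3 per group). The log2 fold change was -0.67 with a 95% interval of -1.84 to 0.50 (adjusted p = 0.890 in edgeR), and it was -0.23 without compound 33 replicate 3. No difference in Epas1 was detected at 2 to 21 reads per library. The 7 endothelial markers summed to 1.35 to 3.18 CPM with DMSO and 4.12 to 7.88 CPM with compound 33, with Tek at up to 17 reads in a library and each of the others at 3 or fewer, and the part of such cells in the Epas1 value was not tested.

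The 3 prolyl hydroxylases did not share a direction. Egln1 encodes PHD2, the enzyme that sets HIF-1α levels in most cells (chromosome 8, 124908587 to 124949324). It stood at 130.4, 119.5 and 131 CPM with DMSO and at 90.5, 116 and 73.1 CPM with compound 33. The highest compound 33 library came within a few CPM of the lowest DMSO library, and the other two lay well below. The means were 127 ± 6.43 and 93.2 ± 21.6 CPM (n = 3 per group). Egln1 had a log2 fold change of -0.44 (SE 0.22, 95% interval -0.92 to 0.04, unadjusted p = 0.0679, adjusted p = 0.749 in edgeR), from -0.63 without compound 33 replicate 2 to -0.29 without compound 33 replicate 3.

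Egln3 encodes PHD3, whose gene is itself induced by hypoxia (chromosome 12, 54178981 to 54203860). It stood at 37.6, 27.1 and 28.2 CPM with DMSO and at 48.9, 48.5 and 43.2 CPM with compound 33. Every compound 33 library lay above every DMSO library, and their spread was small. The mean was 31.0 ± 5.81 CPM with DMSO and 46.9 ± 3.16 CPM with compound 33 (n = 3 per group), 1.52-fold higher. This gave a log2 fold change of 0.60 (SE 0.24, 95% interval 0.10 to 1.11), with an unadjusted p of 0.0233 and an adjusted p of 0.683 in edgeR, and lay between 0.53 and 0.76 with 1 library left out. The unadjusted p of Egln3 lay under 0.05 in 11 of 15 alternative fits. The others were edgeR fits with 1 library left out, where it reached 0.0826.

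Egln2 encodes PHD1, a mainly nuclear member of the family (chromosome 7, 27158658 to 27166802). It stood at 130.4, 105 and 127 CPM with DMSO and at 92.9, 146 and 247 CPM with compound 33. The compound 33 libraries spanned the whole DMSO range, with replicate 1 below it and replicates 2 and 3 above it. Egln2 had a log2 fold change of 0.42 (95% interval -0.22 to 1.07, adjusted p = 0.865 in edgeR), which was -0.0085 without compound 33 replicate 3 and 0.70 without compound 33 replicate 1 (unadjusted p = 0.0258 in edgeR). Exons of Egln2 overlap those of Cyp2t4 on the opposite strand, which had no read in any library.

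Vhl encodes the subunit that recognises hydroxylated alpha subunits (chromosome 6, 113623959 to 113631633). It stood at 55.7, 46.9 and 51.5 CPM with DMSO and at 42.8, 30.7 and 53.5 CPM with compound 33, and the groups overlap. Vhl had a log2 fold change of -0.28 (95% interval -0.82 to 0.26, adjusted p = 0.892 in edgeR), an interval that holds both a lower level and a modestly higher one.

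**Figure D2:**
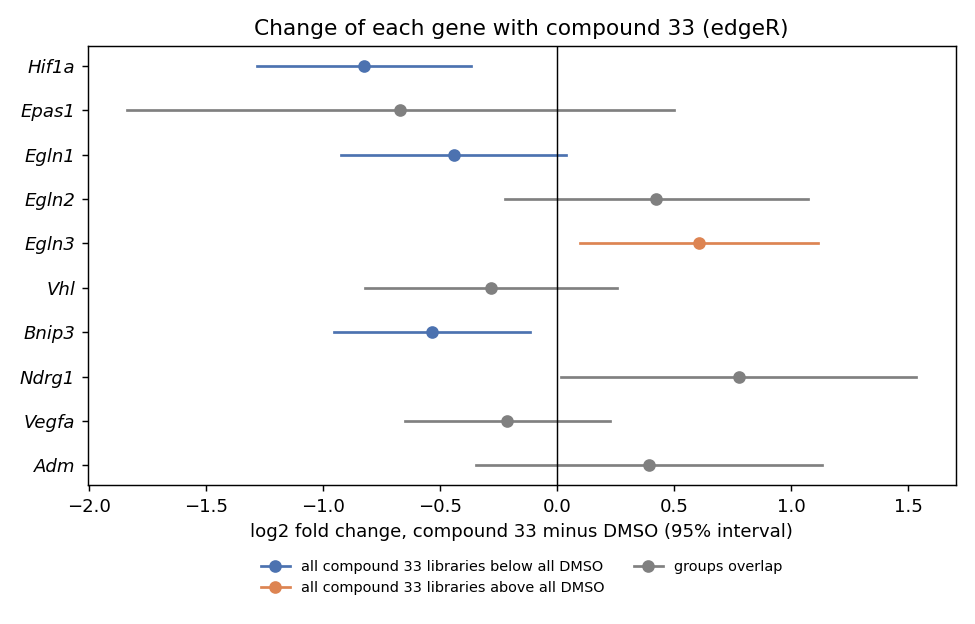
Log2 fold change of each gene (points, edgeR) with its 95% interval (lines); blue and orange mark genes whose groups do not overlap. The intervals of Hif1a and Bnip3 lie below 0 and those of Egln3 and Ndrg1 above 0 before adjustment for the number of genes tested, and the Epas1 interval, from -1.84 to 0.50, is the widest of the 10.

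Among the targets, Bnip3 was the one with the least spread. It encodes a mitochondrial outer-membrane protein of the BCL2 family that marks mitochondria for autophagy (chromosome 7, 138890836 to 138909519). Its level was 408, 462 and 407 CPM with DMSO and 282, 306 and 293 CPM with compound 33, so that all compound 33 libraries lay below all DMSO libraries with a clear gap. The mean was 426 ± 31.6 CPM with DMSO and 294 ± 11.9 CPM with compound 33 (n = 3 per group), 1.45-fold lower. The log2 fold change was -0.54 (SE 0.19, 95% interval -0.95 to -0.12), with an unadjusted p of 0.0157 and an adjusted p of 0.649 in edgeR, and it stayed between -0.57 and -0.47 whichever library was left out. Bnip3 has an adjusted p of 0.532 in the authors' deposited table. Exons of Bnip3 overlap the antisense gene Gm45507, which has no row in the count table.

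Ndrg1, a stress-responsive cytoplasmic protein and a common marker of hypoxic cells, had the opposite sign (chromosome 15, 66929318 to 66969640). It stood at 35.0, 63.6 and 35.9 CPM with DMSO and at 80.1, 109 and 39.6 CPM with compound 33. The groups overlap, since DMSO replicate 2 lay above compound 33 replicate 3. The means were 44.8 ± 16.3 and 76.4 ± 35.1 CPM (n = 3 per group). Ndrg1 had a log2 fold change of 0.77 (SE 0.35, 95% interval 0.02 to 1.53, unadjusted p = 0.0460, adjusted p = 0.720 in edgeR), from 0.42 without compound 33 replicate 2 to 1.12 without DMSO replicate 2. Its unadjusted p lay under 0.05 in 8 of 15 alternative fits and was 0.0549 with total counts only and 0.0511 with a stricter low-count filter in edgeR, and 0.0707 in limma-voom. Exons of Ndrg1 overlap Gm17035 and Gm2895 on the opposite strand, neither of which has a row in the count table.

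Vegfa encodes the main growth factor of vessel sprouting (chromosome 17, 46016993 to 46032369). It stood at 143, 149 and 169.5 CPM with DMSO and at 131, 149.7 and 117 CPM with compound 33, and the groups overlap narrowly. Vegfa had a log2 fold change of -0.21 (SE 0.20, 95% interval -0.65 to 0.22, adjusted p = 0.900 in edgeR), so a level more than 1.17-fold higher lies outside the interval.

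Adm encodes adrenomedullin, a vasodilator peptide (chromosome 7, 110627661 to 110629820). It stood at 1972, 1162 and 1247 CPM with DMSO and at 1182, 1478 and 3087 CPM with compound 33. Compound 33 replicate 3 lay far above the other 5 libraries, which cover a common range. The log2 fold change was 0.39 (95% interval -0.35 to 1.13, adjusted p = 0.892 in edgeR) with all libraries and -0.13 without compound 33 replicate 3. The same library held the highest Egln2 level and the lowest Egln1, Vegfa and Epas1 levels of the 6.

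**Figure D3:**
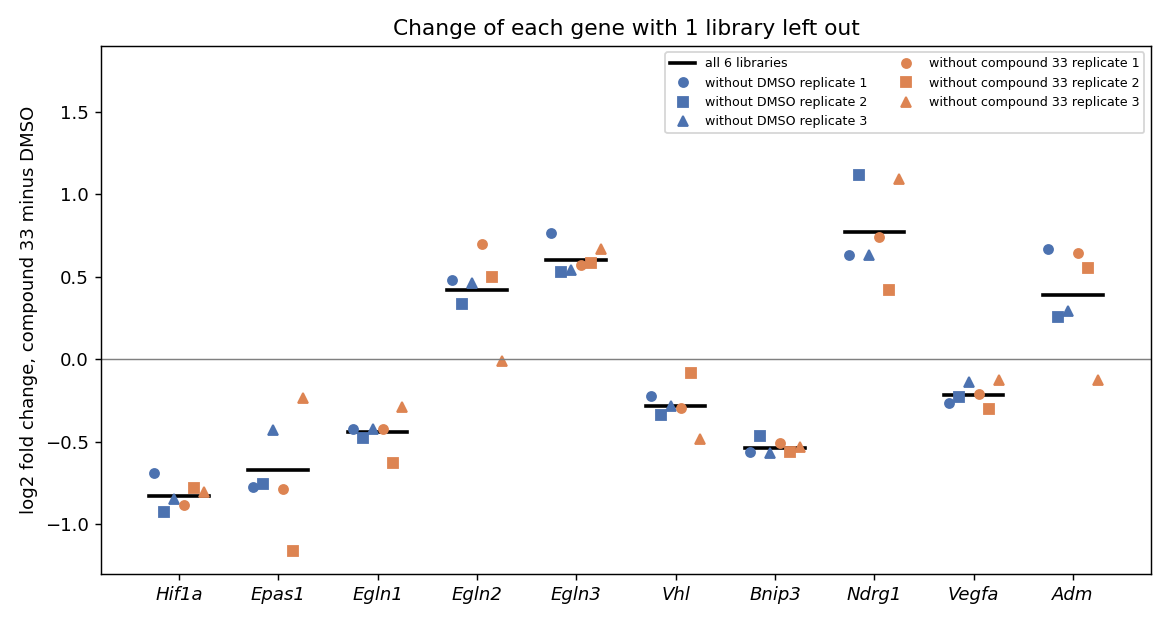
Log2 fold change of each gene with all 6 libraries (black lines) and with 1 library left out (symbols). Hif1a stays between -0.92 and -0.69 and Bnip3 between -0.57 and -0.47, whereas Adm and Egln2 drop to -0.13 and -0.0085 without compound 33 replicate 3.

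Hypoxia-inducible factors bind the core ACGTG or GCGTG, and the aryl hydrocarbon receptor, which also pairs with ARNT, binds GCGTG, so the second core is common to both. Promoter windows of RefSeq (GRCm38.p6, 250 bases before to 50 after a start site) were found for 8 of the 10 genes, in 10 windows, not including Epas1 and Ndrg1. On either strand ACGTG occurs in 6 of these 10 windows, belonging to 6 genes, and in 19.6% of all 32851 windows. GCGTG occurs in 6 of the 10 windows, belonging to 5 genes, and in 32.4% of all windows. The median GC content was 62.3% in the 10 windows and 52.7% in all windows, and both cores contain CG. The windows of Vhl and the upstream window of Vegfa hold neither sequence. The sites below are those of the 4 genes whose groups did not overlap, 1 site per gene, shown because each of them carries the core although Egln3 lay higher and the others lower. Capitals mark ACGTG, letters run 5′ to 3′ on the gene's strand, and a match is a description of the letters and not of binding.
Hif1a, chr12:73907723-73907747, plus strand, core 134 bases before the start: acagacaagcACGTGagcggggcag
Egln1, chr8:124949308-124949332, minus strand, core 68 bases before the start: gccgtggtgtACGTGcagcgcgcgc
Egln3, chr12:54204089-54204113, minus strand, core 229 bases before the start: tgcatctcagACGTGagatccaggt
Bnip3, chr7:138909599-138909623, minus strand, core 107 bases before the start: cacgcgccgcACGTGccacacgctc
In Hif1a and Bnip3 the base before the core is C, so that the reverse strand reads ACGTG at the same place.

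Other genes of the machinery that handles alpha subunits had log2 fold changes between -0.44 and 0.19. Of 13 tested genes, 0 passed in edgeR, 7 had a negative and 6 a positive log2 fold change, and the median was -0.01. The one gene under an unadjusted 0.05 in edgeR was Eloc, beside 6.87% of all tested genes. Eloc, or elongin C, links VHL to its ligase. The Eloc level was 175 ± 15.9 CPM under DMSO and 129 ± 6.93 CPM under compound 33 (n = 3 per group, adjusted p = 0.720 in edgeR). Its partner Elob, elongin B, stood at 319 ± 31.9 and 317 ± 8.27 CPM. Rbx1, the RING subunit of the same ligase, stood at 273 ± 19.9 and 209 ± 17.2 CPM, with groups that did not overlap (adjusted p = 0.755 in edgeR). Of the 13 genes, 2 had such groups lower and 0 higher, beside 6.73% and 6.64% of all tested genes.

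Arnt, the shared partner, stood at 30.8, 86.6 and 48.0 CPM with DMSO and at 47.7, 46.8 and 36.5 CPM with compound 33. Its log2 fold change was -0.34 (adjusted p = 0.902 in edgeR) and 0.14 without DMSO replicate 2, the library with the highest level. In the same libraries Ahrr, a target of the aryl hydrocarbon receptor, passed with a log2 fold change of 3.90, while the values were 1.18 for Cyp1b1, 1.64 for Nqo1 and 1.34 for Tiparp, which did not pass in edgeR (adjusted p = 0.266, 0.266 and 0.575). Cyp1b1 and Nqo1 did pass in other fits, with 0.0054 for each in DESeq2 and in the authors' deposited table, and 0.0113 and 0.0267 in edgeR once genes of low count were kept. Nqo1 also passed in edgeR without DMSO replicate 2 (adjusted p = 0.00868).

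Other non-glycolytic targets of the pathway went both ways, as the 4 described above did. Of 46 genes listed, 34 were tested and 0 passed in edgeR, with 23 negative, 11 positive and a median of -0.17 on the log2 scale, which was -0.10 without compound 33 replicate 1. Of these 34 genes, 3 lay lower and 4 higher with groups that did not overlap, beside 6.73% and 6.64% of all tested genes. Under an unadjusted 0.05 in edgeR were 2 with higher and 2 with lower levels, beside 3.64% higher and 3.23% lower over all tested genes. The higher ones were Vldlr, a lipoprotein receptor (6.49 ± 2.82 and 15.0 ± 2.61 CPM), and Selenbp1, a selenium-binding protein (5.53 ± 1.56 and 10.5 ± 2.07 CPM). Both had few reads per library, Vldlr 9 to 28 with DMSO and 26 to 33 with compound 33, Selenbp1 11 to 13 and 18 to 24. Neither was kept by the stricter low-count filter. The lower ones were Fam162a, a mitochondrial protein (345 ± 27.7 and 244 ± 36.7 CPM), and Mxi1, an antagonist of MYC (27.4 ± 5.20 and 16.7 ± 7.30 CPM). In DESeq2 the unadjusted p was 0.0752 for Selenbp1 and 0.0600 for Mxi1, and it stayed under 0.05 for Vldlr and Fam162a. The most abundant, the collagen cross-linking enzyme Lox and the metallothionein Mt1, had log2 fold changes of -0.17 and -0.37, and that of Lox was 0.17 without DMSO replicate 1.

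Glycolytic targets lay mostly on the lower side. Of 20 tested genes, 0 passed in edgeR, 15 were negative and 5 positive, and the median log2 fold change was -0.27, where 5176 of all 10124 tested genes were negative. That median was -0.17 without DMSO replicate 1 and -0.36 without compound 33 replicate 3, the ends of its range. Under an unadjusted 0.05 in edgeR were 4 lower genes and 0 higher ones, beside 3.23% lower and 3.64% higher over all tested genes. Pgam1, phosphoglycerate mutase, stood at 330.4, 201 and 244 CPM with DMSO and at 156, 114 and 176 CPM with compound 33, and Pdk1, the kinase that shuts pyruvate out of mitochondria, at 65.8, 106 and 62.0 CPM and at 37.3, 53.9 and 43.2 CPM. In both genes the groups did not overlap. Of the 20 genes, 4 had such groups lower and 0 higher, beside 6.73% and 6.64% of all tested genes. Ldha, lactate dehydrogenase A, stood at 1776 ± 405 and 1202 ± 275 CPM with overlapping groups. Eno1, an enolase and the fourth gene, stood at 27.5 ± 13.0 and 15.6 ± 5.81 CPM with overlapping groups (unadjusted p = 0.0440, adjusted p = 0.720 in edgeR). It has a near-identical copy, Eno1b, and how reads matching both were counted is unknown here, so its level is uncertain. Pkm, the most abundant, had a log2 fold change of -0.11, which was 0.14 without DMSO replicate 1.

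**Figure D4:**
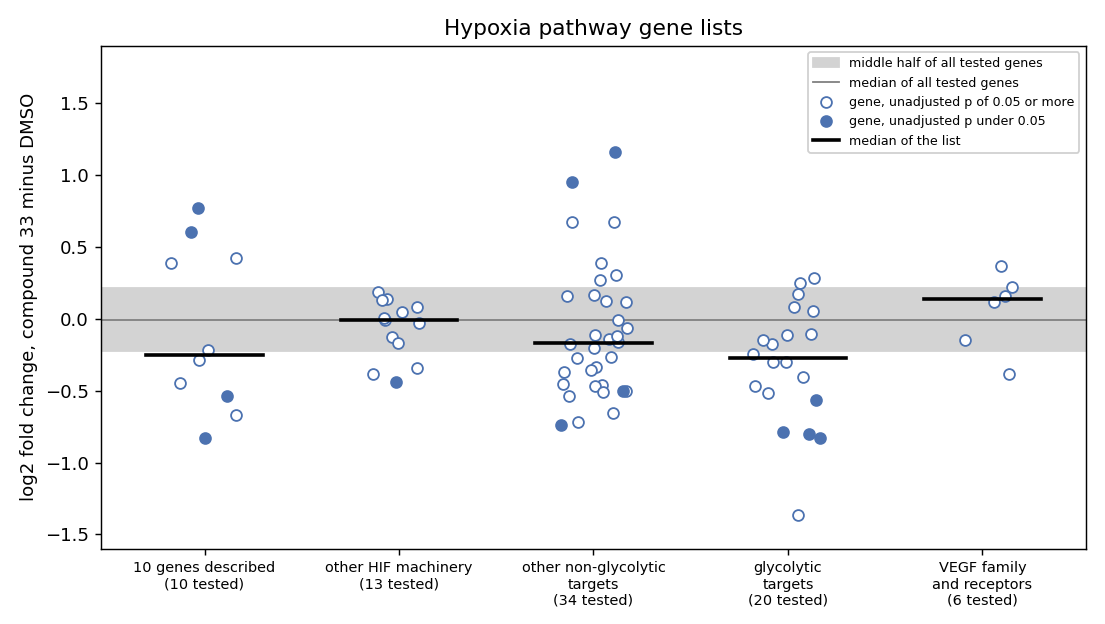
Log2 fold change of each tested gene (circles, filled where the unadjusted edgeR p is under 0.05) in 5 groups of pathway genes, with the median of each group as a black bar and the middle 50% of all tested genes as a grey band. Medians run from -0.27 for glycolytic targets to 0.14 for the VEGF family and its receptors (0.015 to 0.16 with 1 library left out), and the 10 genes described here spread from -0.83 to 0.77.

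Relatives and receptors of the targets were read from further lists, in which 0 genes passed in edgeR. Over all tested genes 13.4% had groups that did not overlap. Of the NDRG family, Ndrg2 had 52.0 ± 12.2 CPM under DMSO and 31.7 ± 9.34 CPM under compound 33, without overlap of the groups. Its log2 fold change was -0.70 (unadjusted p = 0.0250, adjusted p = 0.686 in edgeR), opposite in sign to that of Ndrg1. Ndrg4, the most abundant relative, had a log2 fold change of -0.063, which was 0.23 without DMSO replicate 3. Of 6 tested genes of the VEGF family and its receptors, 0 passed in edgeR and 0 lay under an unadjusted 0.05. Their median log2 fold change of 0.14 was 0.015 without compound 33 replicate 2, 0.032 without DMSO replicate 2 and at most 0.16 with any other library left out. The co-receptor Nrp2 stood at 303 ± 12.4 and 391 ± 39.1 CPM with groups that did not overlap, and Vegfc, a lymphatic growth factor, at 65.1 ± 15.0 and 72.8 ± 10.3 CPM. The VEGF receptors Flt1 and Kdr had at most 8 reads in any library and were not tested. Calcrl, from the list of adrenomedullin receptors, stood at 8.13 ± 5.35 and 10.5 ± 2.04 CPM, on 5 to 27 reads per library. Ramp2 and Ramp3 of the same list had at most 8 reads in any library and were not tested. The scavenger receptor Ackr3 stood at 35.5 ± 12.5 and 38.2 ± 6.09 CPM.

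The genes whose log2 CPM followed Hif1a most closely over the 6 libraries were Bok (Pearson's r = 0.989), Hdac11 (0.989) and Vkorc1l1 (0.982). For Vegfa they were Acvr2a (0.985), Tvp23a (0.984) and Map2k1 (0.984). These are the highest values among all tested genes, over 6 libraries that share the group difference, and they are given as a description.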

How the data were processed

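The authors deposited raw counts of reads per gene for 6 QuantSeq 3′ libraries. The submitters' processing notes name HISAT2 2.2.1, featureCounts 2.0.3, DESeq2 and mm10. In the authors' deposited comparison, the mean normalized count is a signal over all libraries, fold changes and standard errors are log2 values, the Wald statistic is a score, and the last columns are a p-value and its adjusted p-value. Counts were analysed with edgeR 4.0.16 in R 4.3.3, keeping genes by filterByExpr (minimum count 10), with TMM scaling and a robust, two-sided quasi-likelihood test of group, adjusted by Benjamini-Hochberg over 10124 genes. The standard error is the unshrunk log2 fold change over the square root of F. The test was checked on simulated counts with a common dispersion for all genes and planted changes larger than those of the 10 genes. That check does not cover changes of their size. Alternatives used other scalings, filters, DESeq2 1.42.0, limma 3.58.1 (voom), a replicate block, and each library left out. Coordinates and overlaps come from GENCODE M21 on mm10. Members and lists were chosen with earlier results of these data known. Named genes outside the 10 were, per list, up to 4 with the smallest unadjusted p under 0.05 and the 2 most abundant. Arnt, 4 targets of the aryl hydrocarbon receptor and the 3 genes most like Hif1a and Vegfa were also named by rule. Flt1, Kdr, Ramp2, Ramp3 and the cell type markers with reads were named after their values were seen. Promoter sequences are RefSeq's.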

Additional observations from a re-analysis of the deposited data

How the results depend on the processing

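None of the 10 genes passed under any of the 15 alternatives run, DESeq2 and limma-voom among them, except that Epas1 was not tested with the stricter low-count filter and has no adjusted p in DESeq2, and Hif1a lay under an unadjusted 0.05 in each, with an adjusted p from 0.0514 to 0.841. Over all genes 3 passed in edgeR, but 21 without a low-count filter, 18 in DESeq2, 7 with the replicate block and 1 to 7 with 1 library left out; the cause was not tested. The median of the 10 genes ran from -0.28 to -0.18. The labels do not say whether replicate numbers pair the libraries. Deviations of same-numbered libraries correlated at -0.03, 0.21 and 0.08, and those of different-numbered libraries at -0.23 to 0.15. A pairing was not tested. With the replicate block the log2 fold change was -0.82 for Hif1a (adjusted p = 0.315 in edgeR). Signs were followed over the alternatives for the 10 genes, Arnt, the receptor targets beside it and the genes named by rule from the lists. Cell type markers, the genes most like Hif1a and Vegfa, and Flt1, Kdr, Ramp2 and Ramp3 were not followed. Among the genes followed, signs turned only in fits that left out 1 library. There the log2 fold change ran from -0.13 to 0.67 for Adm, -0.0085 to 0.70 for Egln2 and -0.62 to 0.14 for Arnt. The range was -0.097 to 0.41 for Ackr3, -0.048 to 0.80 for Calcrl, -0.082 to 0.063 for Elob and -0.56 to 0.17 for Lox. For Ndrg4 it was -0.37 to 0.23, for Pkm -0.28 to 0.14 and for Vegfc -0.015 to 0.28. Among other non-glycolytic targets 13 of 34 were positive in limma-voom and with the replicate block, against 11. Epas1 had the fewest reads of the 10 genes, at 2 to 21 per library.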
